A study of Mus musculus with 7 samples.

Results

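The genes described here are those of MHC class II antigen presentation: H2-Aa, H2-Ab1, H2-Eb1, Cd74, H2-DMa, H2-DMb1 and Ciita. They were measured in the soleus, a slow postural muscle of the mouse hindlimb, on 7 one-colour Affymetrix arrays. Of these, 4 arrays came from mice labelled Yin Yang 1 (YY1) knockout and 3 from mice labelled wild type. The mice of both groups were aged 6 months, on a mixed background (C57Bl/6 and 129), so the genotype is the labelled difference between the groups. The genes were selected on their log2 values in knockout against wild type arrays, as known from earlier results of these data. The labels do not give the promoter or cell type of the deletion, and they do not say whether each array is 1 animal. Probe sets, the groups of short oligonucleotides that together read 1 transcript, were taken where the platform annotation names exactly 1 gene and that gene is in the list. That gave 10 probe sets of 6 genes, of 22626 probe sets and 12393 genes in all. The 2 probe sets for H2-DMb1 also carry the name of its neighbour H2-DMb2, so H2-DMb1 has no probe set of its own here.

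MHC class II molecules show peptides taken up from outside the cell to CD4 T cells. Each is a pair of an alpha and a beta chain, and the invariant chain encoded by Cd74 fills the binding groove until proteases cut it down. The H2-DM heterodimer then exchanges the remaining fragment for a peptide. Dendritic cells and B cells make class II constantly, and macrophages can make it. The coactivator Ciita, itself induced by interferon gamma in many cells, docks on factors bound at the X and Y boxes of class II promoters.

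In build GRCm38.p6 the genes named H2 lie together on mouse chromosome 17 and Ciita on chromosome 16. Promoter windows of RefSeq ran from 250 bases before to 50 bases after a start site in that build. They were matched by symbol and taken for 4 of the 7 genes. H2-Ab1 and Ciita had no window. Cd74 was left out by a filter on chromosome, so whether its promoter holds the letters described below is not given. H2-Aa, H2-Eb1 and H2-DMb1 are printed because they hold the paired letters through which class II genes are known to be controlled together. Capitals mark GNAAC (X box letters) followed after 15 to 35 bases by GATTGG (Y box letters), with no overlap between them. In the windows of the class II genes the pair was searched only on the strand of the window. These letters and spacing were written with the windows in view.

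H2-Aa, chr17:34287774-34288073, minus strand: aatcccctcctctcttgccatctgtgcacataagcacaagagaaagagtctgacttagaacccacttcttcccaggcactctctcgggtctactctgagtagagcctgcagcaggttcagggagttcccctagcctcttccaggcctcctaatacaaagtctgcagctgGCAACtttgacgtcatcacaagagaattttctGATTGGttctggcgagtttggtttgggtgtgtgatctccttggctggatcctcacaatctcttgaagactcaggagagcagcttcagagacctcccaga
H2-Eb1, chr17:34305617-34305916, plus strand: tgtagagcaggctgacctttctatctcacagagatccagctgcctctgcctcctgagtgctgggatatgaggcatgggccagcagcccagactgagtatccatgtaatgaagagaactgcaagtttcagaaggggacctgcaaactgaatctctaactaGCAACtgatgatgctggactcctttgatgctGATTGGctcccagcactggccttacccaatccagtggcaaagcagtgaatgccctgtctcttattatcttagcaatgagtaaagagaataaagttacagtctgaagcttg
H2-DMb1, chr17:34152941-34153240, plus strand: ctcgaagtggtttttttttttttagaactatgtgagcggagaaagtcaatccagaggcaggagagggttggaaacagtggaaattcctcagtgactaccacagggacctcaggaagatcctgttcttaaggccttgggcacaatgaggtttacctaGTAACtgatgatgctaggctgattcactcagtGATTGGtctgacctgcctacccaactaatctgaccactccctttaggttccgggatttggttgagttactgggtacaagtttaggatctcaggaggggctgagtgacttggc

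In H2-Aa the Y box letters began 49 bases before the start site, in H2-Eb1 60 and in H2-DMb1 62. The X and Y letters were 27, 26 and 27 bases apart in the windows of H2-Aa, H2-Eb1 and H2-DMb1. Searched on both strands, which gives more room for a match, the same pair was found in 1.21% of all 32851 windows. The Y box letters alone were in 16.1% and the X box letters alone in 84.8%. The 2 windows of H2-DMa did not hold the pair on the strand of the window, which says only that these letters are not there in this spacing. A match is a description of the sequence, and binding was not measured.

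Array values are intensities, given here as log2(intensity + 1), and array medians lay between 7.13 and 7.17 on that scale. Yy1, the deleted gene, measured 8.35 ± 0.11 in knockout (SD, n = 4) and 9.38 ± 0.22 in wild type (SD, n = 3) by its brightest probe set over the 7 arrays, a log2 difference of -1.02 (SE 0.11, adjusted p = 0.000271 by limma). Its other probe sets differed by -1.7, -0.77 and -0.06, and the labels do not place them relative to the removed part. Markers of slow muscle were bright in both groups: Myh7 averaged 15.4 in knockout and 15.22 in wild type, and Tnnt1 15.49 in knockout and 15.27 in wild type. Correlations between arrays were 0.9955 to 0.997 within knockout, 0.997 to 0.9973 within wild type and 0.98 to 0.9889 between the genotypes.

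The chains that present peptide were higher in knockout soleus on every array. H2-Aa, H2-Ab1 and H2-Eb1 were each 3.47- to 4.35-fold higher by their brightest probe sets, and Cd74, the invariant chain that chaperones them, 3.17-fold. H2-DMa, a chain of the peptide exchange factor, was 1.96-fold higher, and the coactivator Ciita was near the same level by one probe set and 1.35-fold higher by the other. These genes were chosen with this contrast in view, so their differences are given as values with no test.

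H2-Aa encodes the alpha chain of I-A, the class II molecule that C57Bl/6 mice rely on. Its brighter probe set, 1435290_x_at, read 11.34, 11.47, 11.56 and 11.01 on knockout arrays 1 to 4, against 9.03, 9.12 and 9.52 on wild type arrays 1 to 3. The lowest knockout array thus stood above the highest wild type array, and the mean difference was 2.12 (SE 0.16). As intensities, the knockout arrays spanned 2058.6 to 3017.8 and the wild type arrays 520.1 to 735.4. The second probe set, 1452431_s_at, read 8.47, 8.59, 8.60 and 8.09 in knockout, against 6.65, 6.50 and 6.78 in wild type. It gave a difference of 1.79 (SE 0.13), also with no overlap between the groups.

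H2-Ab1 encodes the beta chain that pairs with H2-Aa, and 3 probe sets read it. The brightest, 1450648_s_at, read 10.26, 10.42, 10.57 and 9.91 in knockout, against 8.16, 8.02 and 8.41 in wild type. Its difference of 2.09 (SE 0.16) stood close to that of H2-Aa. The probe set 1451721_a_at read 8.84, 8.92, 8.98 and 8.34 in knockout, against 6.72, 6.85 and 7.20 in wild type, a difference of 1.84 (SE 0.17). The dimmest, 1425477_x_at, read 7.31, 7.47, 7.58 and 7.01 in knockout, against 5.92, 6.35 and 6.12 in wild type. Its difference was 1.21 (SE 0.15), the smallest of the 3, and the groups did not overlap in any of them. In Affymetrix names, the endings x_at and s_at mark probe sets whose probes can match more than 1 transcript.

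H2-Eb1 encodes the beta chain of I-E, the other class II molecule of the mouse. It read 9.55, 9.63, 9.73 and 9.08 in knockout, against 7.59, 7.77 and 7.75 in wild type, and the groups did not overlap. The difference was 1.80 (SE 0.14), or 3.47-fold. The alpha chain that H2-Eb1 needs to form I-E comes from H2-Ea, a gene that C57Bl/6 mice are known to carry with a deleted promoter and that RefSeq lists as a transcribed pseudogene. H2-Ea was not among the genes chosen and was tested. Its brightest probe set averaged 6.80 ± 0.24 in knockout (SD, n = 4) and 6.92 ± 0.04 in wild type (SD, n = 3), a difference of -0.13 (SE 0.12, adjusted p = 0.468 by limma). The other H2-Ea probe sets differed by -0.05 (SE 0.05, adjusted p = 0.552) and 0.10 (SE 0.05, adjusted p = 0.209).

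Cd74 encodes the invariant chain, which keeps the groove closed in the endoplasmic reticulum and carries class II to the endosome. It read 8.87, 9.36, 9.24 and 8.61 in knockout, against 7.29, 7.31 and 7.47 in wild type. Knockout array 2 was the highest and knockout array 4 the lowest, and even array 4 stood above every wild type array. The difference was 1.67 (SE 0.17). H2-DMa read 7.62, 7.61, 7.56 and 7.34 in knockout, against 6.34, 6.48 and 6.86 in wild type. The groups did not overlap, and the difference was 0.97 (SE 0.13), smaller than that of any probe set of the presenting chains or Cd74.

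Of the H2-DM beta chain, the probe sets that carry both H2-DMb1 and H2-DMb2 lie outside the rule and are given for completeness. The brighter, 1449580_s_at, read 6.96, 7.31, 7.41 and 6.88 in knockout, against 6.58, 6.44 and 6.43 in wild type, a difference of 0.66 (SE 0.13). The dimmer, 1418638_at, read 5.59, 6.07, 5.49 and 5.24 in knockout, against 4.90, 4.83 and 5.11 in wild type, a difference of 0.65 (SE 0.17). Neither probe set overlapped between the groups. A probe set named for H2-DMb2 alone averaged 5.94 ± 0.13 in knockout (SD, n = 4) and 5.84 ± 0.01 in wild type (SD, n = 3), with a difference of 0.10 (SE 0.08, adjusted p = 0.385 by limma).

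Ciita, the coactivator that switches the class II genes on, was dim on both of its probe sets. The probe set 1421210_at read 5.15, 5.59, 5.67 and 5.15 in knockout, against 4.97, 5.02 and 4.86 in wild type. Knockout arrays 2 and 3 were the high ones, arrays 1 and 4 lay just above wild type, and the difference was 0.44 (SE 0.14). The slightly brighter 1421211_a_at read 5.49, 5.49, 5.59 and 5.49 in knockout, against 5.49, 5.45 and 5.49 in wild type. Its groups overlapped and the difference was 0.04 (SE 0.05). Both probe sets lay below the array medians and no detection call was used, so a fold change of Ciita may be understated.

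**Figure D1:**
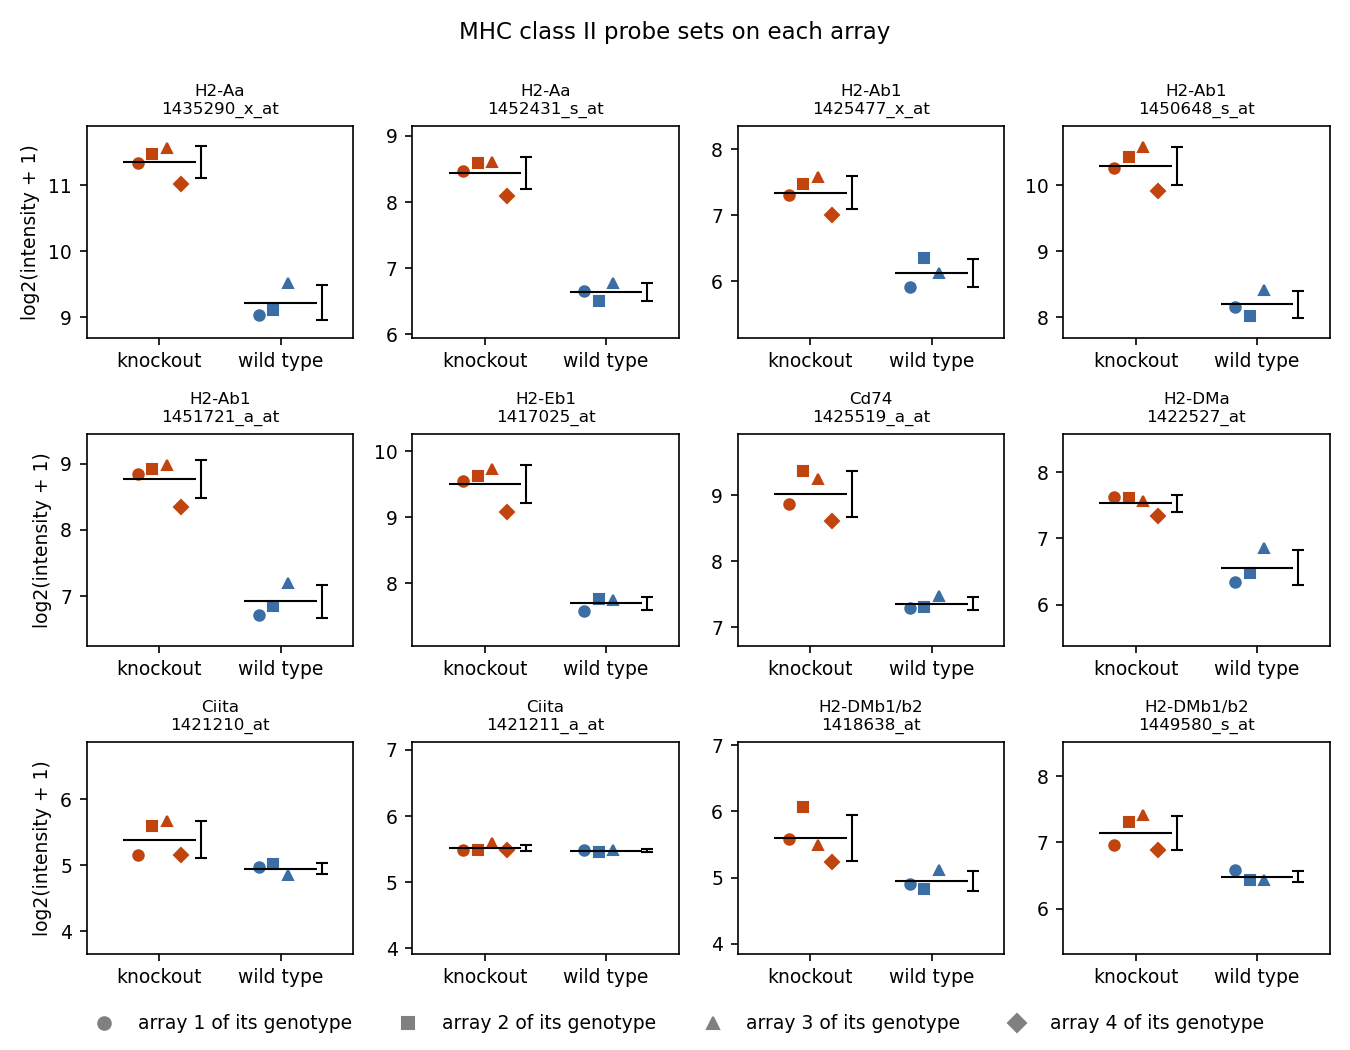
Each panel shows 1 probe set, with log2(intensity + 1) on the vertical axis over a range of equal height, each point an array, the horizontal line the group mean and the bar its SD (4 knockout and 3 wild type arrays). The groups overlap only in the Ciita probe set 1421211_a_at, and the panels marked H2-DMb1/b2 are the probe sets that carry both gene names.

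**Figure D2:**
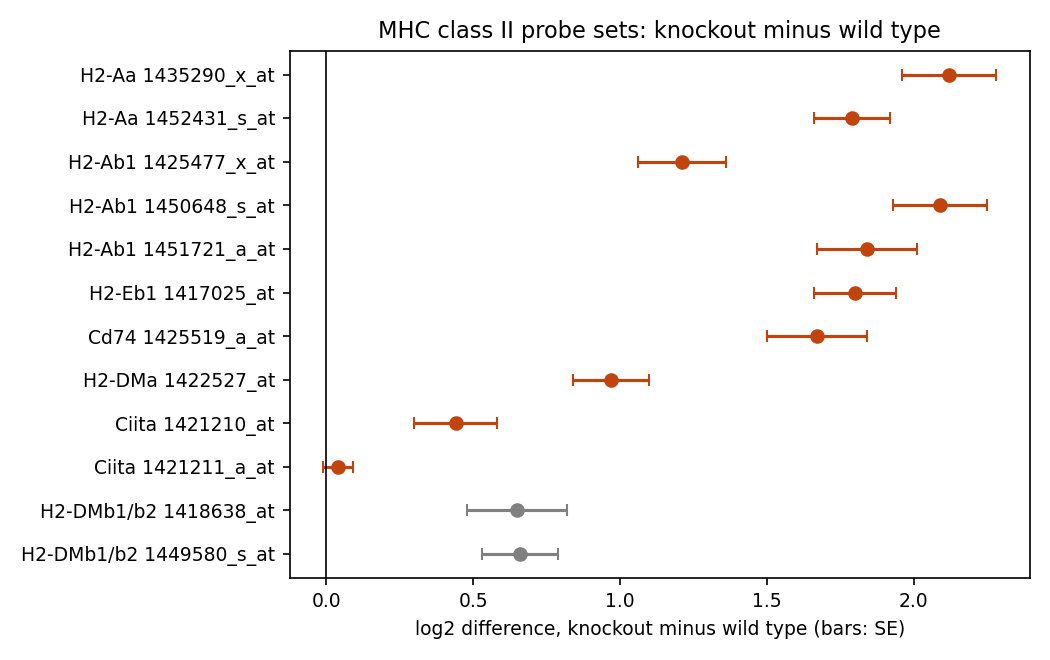
Points give the log2 difference, knockout minus wild type, of each probe set with its SE as the bar, the grey ones being the H2-DMb1/H2-DMb2 probe sets outside the rule. Differences run from 0.04 for Ciita 1421211_a_at to 2.12 for H2-Aa 1435290_x_at.

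Over the 10 probe sets the median log2 difference was 1.73, beside 0.01 over all 22626 probe sets. In 9 of the 10, every knockout array was above every wild type array, which held for 18.4% of all probe sets. Nothing is read from this count, since the contrast chose the genes. All 10 probe sets were counted and none was removed by a filter on low values.

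Within the knockout group the class II genes kept an order across arrays. Knockout array 4 was the lowest of the 4 in 8 of the 10 probe sets, against 21.2% of all probe sets, and knockout array 3 the highest in 8 of 10, against 26.6%. Averaged over H2-Aa, H2-Ab1, H2-Eb1 and Cd74, knockout arrays 1 to 4 stood 1.89, 2.10, 2.16 and 1.53 log2 units above the wild type mean. Wild type arrays 1 to 3 stood at -0.10, -0.07 and 0.17. Averaged over all 6 class II genes, H2-DMa and Ciita included, knockout arrays 1 to 4 stood lower, at 1.44, 1.58, 1.62 and 1.16. The probe sets share arrays and RNA, so this order is 1 observation on 4 arrays and was not tested.

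Enzymes and partners of class II loading moved less uniformly. Of 13 measured genes of 17 listed, 6 rose and 1 fell, while 16.3% of all genes rose and 15.5% fell; the list's median was 0.10, beside 0.01 over all genes. Ctss, the cathepsin that makes the last cuts in the invariant chain, read 10.40, 9.87, 10.50 and 10.36 in knockout, against 8.23, 8.38 and 8.05 in wild type. It rose by 2.06 (SE 0.15, adjusted p = 7.78e-05), and here knockout array 2 was the low one. Ctsz, a lysosomal carboxypeptidase, rose by 1.52 (SE 0.12, adjusted p = 0.0001), and Lgmn, the asparagine endopeptidase that also cuts the invariant chain, by 0.73 (SE 0.08, adjusted p = 0.000485). Cd81, a tetraspanin, rose by 0.54 (SE 0.07, adjusted p = 0.000869). Ctsh, a lysosomal aminopeptidase, averaged 8.72 ± 0.20 in knockout (SD, n = 4) and 9.58 ± 0.11 in wild type (SD, n = 3) and fell by 0.86 (SE 0.11, adjusted p = 0.000801).

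The class II promoter list holds factors that bind there and coactivators that do not bind DNA themselves, such as Kat2b. Of its 10 measured genes (11 listed), 3 rose and none fell, beside 16.3% and 15.5% of all genes. The median was 0.01, and 6 genes had an unadjusted p under 0.05 by limma. Without knockout array 1 or wild type array 3, 1 gene fell. Rfx5, the X box factor whose loss abolishes class II in human patients, read 8.15, 8.37, 8.31 and 8.03 in knockout, against 7.78, 7.62 and 7.30 in wild type. It rose by 0.65 (SE 0.13, adjusted p = 0.00537), with no overlap between the groups. Nfya, a subunit of the Y box factor, rose by 0.45 (SE 0.09, adjusted p = 0.00707), but 1 of its other probe sets measured -0.05. Kat2b, a histone acetyltransferase that works with Ciita, rose by 0.70 (SE 0.07, adjusted p = 0.000189).

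Genes upstream of Ciita did not share a direction. Of 11 measured of 12 listed, 1 rose and 1 fell, beside 16.3% and 15.5% of all genes, with a median of 0.07. The number that fell was 3 on leaving out wild type array 1 and 0 on leaving out wild type array 2. Irf8, a transcription factor of myeloid cells, rose by 0.31 (SE 0.09, adjusted p = 0.0399), and its other probe set gave 0.64. The call of the brighter probe set was lost on leaving out any one array other than knockout array 1 (adjusted p = 0.0597 to 0.14), while the mean of both gave 0.47 (adjusted p = 0.0192). Ifngr2, a chain of the interferon gamma receptor, fell by 0.46 (SE 0.10, adjusted p = 0.0113; -0.12 in its other probe set), and its adjusted p was 0.0526 without wild type array 2. Ifng, the cytokine itself, averaged 4.29 ± 0.02 in knockout (SD, n = 4) and 4.32 ± 0.04 in wild type (SD, n = 3), a difference of -0.03 (SE 0.05, adjusted p = 0.689). That level lies at the dim end of the arrays, whose 5th percentile was 4.30 to 4.36.

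Genes that interferons induce were not higher as a list. Of 16 measured of 20 listed, 2 rose and 2 fell, beside 16.3% and 15.5% of all genes, with a median of -0.30. Cxcl10, a chemokine of the interferon response, rose by 0.60 (SE 0.14, adjusted p = 0.0113) and Mx1, an antiviral GTPase, by 0.31 (SE 0.06, adjusted p = 0.00461). Irgm1, an interferon gamma-induced GTPase, fell by 0.55 (SE 0.08, adjusted p = 0.00102) and Gbp2, a guanylate-binding protein, by 0.64 (SE 0.19, adjusted p = 0.0332). Wild type array 1 was the lowest wild type array in 14 of these 16 genes. Leaving out wild type array 1 gave 8 genes that fell, leaving out any one of the other arrays gave 1, and Gbp2 lost its call without any one array other than wild type array 1 (adjusted p = 0.0561 to 0.129). Class I presentation genes, which load peptides made inside the cell, had 1 of 10 measured that rose, Pdia3 (0.35, SE 0.08, adjusted p = 0.0134), and none that fell. Without wild type array 1, Pdia3 had an adjusted p of 0.0551, and 1 other gene of the list fell.

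Markers of leukocytes were higher in knockout soleus together with class II. All 9 pan-leukocyte markers rose by their brightest probe sets, beside 16.3% of all genes, with a median of 1.14. The dimmer probe sets of Coro1a gave 0.03 to 0.73 (0.96 by its brightest) and that of Lcp1 0.52 (1.14 by its brightest). Ptprc, which encodes CD45, read 7.84, 7.89, 8.28 and 7.56 in knockout, against 5.92, 6.34 and 6.27 in wild type, and rose by 1.72 (SE 0.16, adjusted p = 0.000215). Laptm5, a lysosomal protein of blood cells, rose by 1.52 (SE 0.14, adjusted p = 0.000188), and its dimmer probe sets gave 0.41 to 1.11. Tyrobp, an adaptor of myeloid receptors, rose by 1.35 (SE 0.14, adjusted p = 0.000301) and Cd53, a tetraspanin, by 1.17 (SE 0.16, adjusted p = 0.00106).

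Of 18 macrophage and monocyte markers, 15 rose and none fell, beside 16.3% and 15.5% of all genes, with a median of 1.0. Mertk (-0.19, SE 0.11, adjusted p = 0.219), Cx3cr1 (0.13, SE 0.07, adjusted p = 0.24) and Ccr2 (0.24, SE 0.10, adjusted p = 0.104) did not pass. In Mertk every knockout array was below every wild type array. The other probe sets of Ccr2 gave 0.37 and 1.8, and that of Cx3cr1 0.16. Among markers that rose, the other probe set of Trem2 gave 0.09 (0.57 by its brightest). Those of C1qb gave 0.56 and 1.04 (1.19 by its brightest). Cd68, a lysosomal protein of macrophages, read 8.51, 8.71, 9.13 and 8.92 in knockout, against 6.73, 6.79 and 6.77 in wild type. It rose by 2.05 (SE 0.13, adjusted p = 5.68e-05), close to the difference of the brightest H2-Ab1 probe set. Mpeg1, the pore-forming protein perforin-2 of phagocytes, rose by 2.52 (SE 0.17, adjusted p = 6.65e-05) and Lgals3, a galectin, by 2.44 (SE 0.16, adjusted p = 6.65e-05). Mrc1, the mannose receptor, rose by 1.32 (SE 0.14, adjusted p = 0.000366), Csf1r, the receptor of macrophage growth factor, by 1.05 (SE 0.16, adjusted p = 0.00151; 0.51 and 0.72 by its dimmer probe sets), and Adgre1, which encodes F4/80, by 0.94 (SE 0.17, adjusted p = 0.00426). The summed intensity of the 18 markers spanned 10348 to 17038 on knockout arrays and 4639 to 5497 on wild type arrays. Their part in the class II differences was not tested. In whole muscle, more cells of a type and more RNA per cell cannot be told apart.

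Dendritic cells and B cells also make class II. Of 9 measured dendritic cell markers, 2 rose and 1 fell, beside 16.3% and 15.5% of all genes, with a median of 0.16. Clec10a, a lectin that macrophages also carry, rose by 1.34 (SE 0.19, adjusted p = 0.00132). Flt3, a growth factor receptor of dendritic cells, rose by 0.25 (SE 0.07, adjusted p = 0.028). Flt3 lost that call without knockout array 3 or 4 or wild type array 1 or 2 (adjusted p = 0.0576 to 0.103), and in the fit with a replicate block (adjusted p = 0.0562). Zbtb46, a transcription factor of dendritic cells that endothelium also makes, fell by 0.29 (SE 0.07, adjusted p = 0.0133; -0.08 and -0.04 in its other probe sets), and its adjusted p was 0.052 without wild type array 2. Itgax, which encodes CD11c, averaged 6.45 ± 0.13 in knockout (SD, n = 4) and 6.23 ± 0.10 in wild type (SD, n = 3), a difference of 0.23 (SE 0.08, adjusted p = 0.0794). The summed intensity of the dendritic cell markers spanned 4308 to 5226 in knockout and 3841 to 4833 in wild type, and 87.8% to 91.4% of it was Cd24a, a gene made by many cell types. The other 8 markers, a subset chosen after the values were seen, summed to 512 to 568 in knockout and 410 to 433 in wild type. These sums include Clec10a, which alone spanned 116.5 to 185.9 in knockout and 44.6 to 70.0 in wild type.

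No B cell marker passed the threshold of limma: 0 of 9 measured, with 1 at an unadjusted p under 0.05, and 0 under each alternative run. Over all genes 16.3% rose and 15.5% fell. Ms4a1, which encodes CD20, averaged 4.56 ± 0.26 in knockout (SD, n = 4) and 4.58 ± 0.08 in wild type (SD, n = 3), a difference of -0.02 (SE 0.13, adjusted p = 0.923). The markers with the smallest p were Cr2 (-0.11, SE 0.05, adjusted p = 0.119) and Cd22 (0.09, SE 0.08, adjusted p = 0.444). The summed intensity of the B cell markers was 568 to 759 in knockout and 572 to 628 in wild type. Most of these markers averaged below the array medians in both groups, so a change in them could go unseen.

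T cells, which read class II, gave a like result: 0 of 9 measured markers passed the threshold of limma, and 0 had an unadjusted p under 0.05. The alternatives also gave 0, where 16.3% of all genes rose and 15.5% fell in the main fit. Cd4, the coreceptor that binds class II, averaged 7.46 ± 0.03 in knockout (SD, n = 4) and 7.42 ± 0.05 in wild type (SD, n = 3), a difference of 0.04 (SE 0.05, adjusted p = 0.641). Cd3e, of the T cell receptor complex, differed by 0.07 (SE 0.11, adjusted p = 0.678). Thy1 differed by 0.31 (SE 0.24, adjusted p = 0.38) and Cd3d by 0.10 (SE 0.10, adjusted p = 0.509). The summed intensity of the T cell markers was 663 to 850 in knockout and 662 to 685 in wild type. As in the B cell list, most of these markers averaged below the array medians in both groups, where a change could go unseen.

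Among costimulatory genes, which accompany class II on presenting cells, 2 of 9 rose and none fell, with a median of 0.00. Of all genes, 16.3% rose and 15.5% fell. Cd48, a ligand found on most leukocytes, rose by 0.96 (SE 0.21, adjusted p = 0.00897) and Cd86, a ligand of CD28, by 0.33 (SE 0.07, adjusted p = 0.0112; 0.12 in its other probe set). Without wild type array 1, 2 genes of this list fell. Of 8 neutrophil and mast cell markers, none rose and 1 fell. S100a9, a calcium-binding protein of neutrophils, fell by 0.57 (SE 0.18, adjusted p = 0.0447) and lost its call without any one array other than wild type array 3 (adjusted p = 0.0589 to 0.154) and in the fit with a replicate block (0.0639) or a pseudocount of 16 (0.0541).

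**Figure D3:**
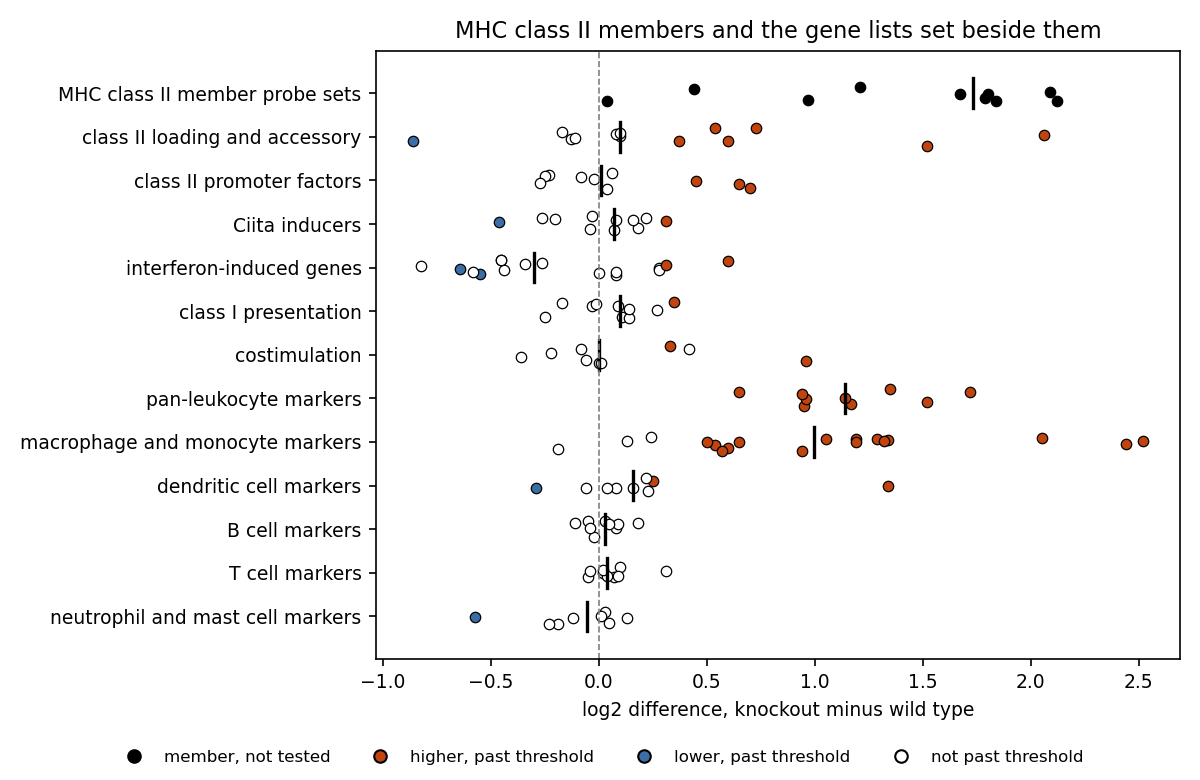
Each point is the log2 difference, knockout minus wild type, of 1 gene by its brightest probe set (first row: 1 member probe set each), and the vertical bars are medians. All 9 pan-leukocyte markers and 15 of 18 macrophage markers are filled as higher, while the B cell and T cell rows hold open points only.

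Across the knockout arrays the pan-leukocyte list ranked the arrays as both class II averages did, while the macrophage list ranked them otherwise. The macrophage list averaged 0.83, 1.00, 1.32 and 0.93 log2 units above the wild type mean on knockout arrays 1 to 4, and the pan-leukocyte list 1.05, 1.14, 1.55 and 0.88. Knockout array 3 was thus the highest for class II and for both leukocyte lists. Knockout array 4 was the lowest for class II and for the pan-leukocyte list, while array 1 was the lowest for the macrophage list.

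**Figure D4:**
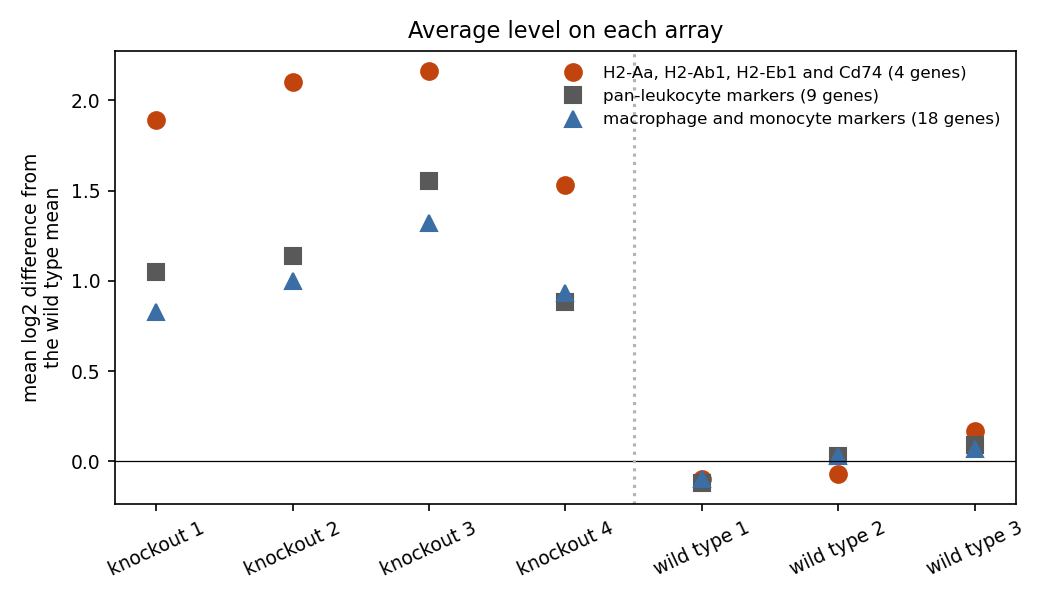
The vertical axis is the mean log2 difference of a gene set from its wild type mean, and each symbol is 1 array. H2-Aa, H2-Ab1, H2-Eb1 and Cd74 average 1.53 on knockout array 4 and 2.16 on knockout array 3, with the leukocyte lists lower on each knockout array. The average over all 6 class II genes is not drawn and is lower, 1.16 and 1.62 on these arrays.

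For likeness, the class II average was that of all 6 class II genes by their brightest probe sets, H2-DMa and Ciita included. The genes most like it over the 7 arrays were sought among 12387 other genes. The measure was the root mean square distance of their log2 values, each taken from its own wild type mean. The 5 nearest were Ly86, Mthfd2, Pdpn, Pqlc3 and Pycard, at 0.106, 0.107, 0.127, 0.132 and 0.134 log2 units, where the median gene stood at 1.099. Ly86, which encodes MD-1, a partner of a B cell and myeloid surface receptor, read 7.89, 7.84, 7.78 and 7.44 in knockout, against 6.21, 6.30 and 6.28 in wild type. Mthfd2, a mitochondrial folate enzyme, read 9.46, 9.39, 9.41 and 8.99 in knockout, against 7.79, 7.91 and 7.85 in wild type. In both, and in Pycard, knockout array 4 was the lowest of its group, as in most class II probe sets. In Pdpn and Pqlc3 knockout array 1 was the lowest. The genes were picked by likeness over the same arrays, so nothing is read from this order. Pdpn, a surface glycoprotein of lymphatic endothelium and stromal cells, read 9.18, 9.68, 9.66 and 9.19 in knockout, against 7.99, 7.95 and 8.0 in wild type. Pycard, an inflammasome adaptor, read 7.82, 7.91, 8.05 and 7.42 in knockout, against 6.04, 6.15 and 6.37 in wild type. Among the class II genes themselves, Cd74 was nearest to this average of 6 genes (0.197) and the brightest probe set of Ciita farthest (1.076).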

How the data were processed

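The authors deposited 1 intensity per probe set and array, made with RMA per the submitters' processing notes; no source used here names its software or version. These deposited values were linear and were taken to log2(value + 1). After 64 control probe sets were removed, 22626 remained, 20380 with 1 gene symbol, 691 with several and 1555 with none. Symbols were updated by Entrez identifier (12369 of 12393 genes matched). Every probe set of a class II gene is given; other genes stand by their brightest probe set. Knockout was compared with wild type with limma 3.58.1 in R 4.3.3 (lmFit, eBayes, two-sided, no filter), with Benjamini-Hochberg adjustment over all 22626 probe sets and a threshold of 0.05. "Rose" and "fell" mean past that threshold. The members and lists were chosen with earlier results of these data known.

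The names given from each list followed a rule: the 4 genes of smallest p each way among those that passed, or the 2 smallest p where none did, plus set markers (Ptprc, Cd68, Adgre1, Csf1r, Itgax, Flt3, Ms4a1, Cd3e, Cd4, Rfx5, Ifng, H2-Ea and Ctss). H2-DMb2, Mertk, Cx3cr1, Ccr2, Cd24a, Coro1a, Lcp1, Trem2 and C1qb were named outside it, after their values were seen. The number of arrays limits the precision, the spread that p-values measure is that between these samples and may be technical, and no array date was available to test as a batch here. No arrays were duplicates (at most 1819 probe sets equal in a pair). In simulated data over 22626 probe sets, 200 were changed and the noise was independent between probe sets. There limma recovered 94.3% of changes of 1 log2 unit and 63.5% of changes of 0.5, and 4.8% of its calls were false. Many more probe sets passed in the real data (6477), so these rates need not hold there.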

Additional observations from a re-analysis of the deposited data

Results flagged for a closer look

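In 52 sets of 4 knockout values examined, the highest or lowest array stood apart from the other 3 in 7, judged by its gap to the nearest array as a share of the group's range against Dixon's critical value. Chance gives about 1 in 20. The share was 0.919 for the Ciita probe set 1421211_a_at, where knockout array 3 was high. It was 0.957 for Cd48 and 0.868 for Itgax, with knockout array 3 high in each. For Cxcl10 it was 0.854, with knockout array 4 low, and for Irgm1 0.85, with knockout array 1 high. For Cr2 it was 1.0 and for Ifng 0.853, both over a narrow range near the dim end of the arrays.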

How the results depend on the processing

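The 10 class II differences kept their direction under every alternative run on probe sets: pseudocounts of 0 and 16, median centring, quantile normalization, another variance model, the replicate block and each array left out. A filter on dim probe sets kept 6 of the 10, leaving out both Ciita probe sets, H2-DMa and H2-Ab1 1425477_x_at, and those 6 kept their direction. The median of the 10 was 1.65 to 1.86 with 1 array left out. The Ciita probe set 1421211_a_at then gave only 0.01 to 0.05, beside an SE of 0.05 in the main fit. Nothing is read from its direction. With 1 row per gene, 4082 genes (brightest probe set) or 4112 (mean of probe sets) passed, against 6477 probe sets, and 5 of 6 class II genes by the brightest probe set had no overlap; fewer rows are tested there. Same-numbered arrays did not deviate together (correlations 0.048, -0.098 and 0.011), so no pairing by number was seen. With so few arrays, each centred on its group, a shared batch could go unseen. Of 32 named genes past the threshold, 7 lost the call under some alternative (Irf8, Ifngr2, Gbp2, Pdia3, Flt3, Zbtb46 and S100a9); none changed direction while called. Zbtb46 also lost it with its probe sets averaged (adjusted p = 0.0689). Dim genes such as Ciita, Ifng and Ms4a1 sit near the low end of the scale, where signal over background limits what can be seen.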
